A study of Caenorhabditis elegans with 4 samples.

Results

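The genes described here encode the subunits of the chaperonin CCT, also called TRiC, and were taken by the symbols cct-1 to cct-8 from the deposited table of raw counts per gene. All 8 symbols matched a row, so the group holds 8 of the 20182 genes in the table. The counts come from total RNA of whole young adult Caenorhabditis elegans, grown from hatched larvae and frozen. A set of 2 libraries, labelled c14, represents a cey-1 cey-4 double mutant with the alleles rrr12 of cey-1 and ok858 of cey-4. The other 2 represent N2, the usual laboratory wild type. No allele or treatment is shared by both groups in the labels. Both mutated genes belong to the Y-box family, whose proteins use a cold shock domain to bind mRNA. Whole-worm RNA mixes all tissues, and in such samples fewer cells of a type and less RNA per cell cannot be told apart.

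CCT is the chaperonin of the eukaryotic cytosol, a pair of stacked rings whose cavity encloses a protein while it folds. Each ring holds every subunit once, at a fixed place, and the complex binds and hydrolyses ATP. Actin and tubulin are its best known clients, and the proteins that prefoldin passes to it include both. In C. elegans the complex is needed for microtubule function in the early embryo and for the growth of the intestine and gonad.

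Summed gene counts were 33009708 and 24717311 for mutant replicates 1 and 2, and 29773406 and 31311497 for N2 replicates 1 and 2. Levels are given as CPM, counts relative to the TMM-scaled library total, and log2 fold changes are mutant over N2 with a standard error (SE). The mutated genes were lower in the libraries labelled as mutant, cey-4 at 10.7 ± 0.831 CPM in the mutant and 774 ± 17.4 CPM in N2, and cey-1 at 23.1 ± 2.06 CPM in the mutant and 137 ± 10.1 CPM in N2 (SD, n = 2 each). The labels do not state whether replicate libraries were separate cultures, so the p-values reflect only the spread between these samples, which may be technical. Each of the 6 lists of tissue markers used here, for germline, sperm, oocyte, body wall muscle, intestine and neurons, was detected in all 4 libraries.

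In the Ensembl annotation of assembly WBcel235, which may not be the build behind the counts, 4 of the genes lie on chromosome II. They are cct-3 (plus strand, 2233540 to 2243539), cct-1 (plus, 8185443 to 8187601), cct-4 (plus, 8283667 to 8285711) and cct-2 (plus, 8927741 to 8929815). On chromosome III lie cct-5 (minus, 4499188 to 4508114) and cct-6 (minus, 5853530 to 5855687), cct-8 lies on chromosome IV (minus, 1087108 to 1093920) and cct-7 on chromosome V (plus, 1872246 to 1875505). Their longest annotated proteins run from 529 residues for cct-2 to 549 for cct-1, and their merged exons from 1854 bases for cct-4 to 2602 for cct-3. Exons of cct-1 share 117 bases with T05C12.8 on the opposite strand, and those of cct-7 share 28 bases with zig-11. Whether counting used strand is unknown here, but T05C12.8 had only 9 to 13 counts per library, against at least 8122 for cct-1. The partner of cct-7 was counted more often, with 1103 to 1302 counts for zig-11 and 6635 to 8691 for cct-7.

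All 8 genes were strongly expressed, with 6448 to 15348 counts per gene and library, and all 8 passed the filter on low counts. By mean CPM over the libraries cct-7, the least abundant, stood above 94.8% of tested genes, and cct-6, the most abundant, above 97.7%. At this depth counting error is small, and precision is limited by having 2 libraries per group.

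The comparison asked whether transcripts of the chaperonin differ between the cey-1 cey-4 mutant and wild type. In the mutant cct-3 fell to 78.3%, cct-8 to 80.4% and cct-2 to 81.0% of the N2 level, and the other 5 genes did not pass the test. Of the 8 members 3 were thus lower (edgeR's quasi-likelihood test with Benjamini-Hochberg adjustment over 13944 tested genes, adjusted p below 0.05), where 13.3% of all tested genes were lower. No member was higher, that is 0 of 8 with edgeR, DESeq2 or limma and 0 at an unadjusted p under 0.05, where 13.1% of all tested genes were higher. The median log2 fold change was -0.24 for the 8 genes and -0.01 for all tested genes. All changes were small, since genes called lower across the table had a median of -0.55.

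Transcripts of cct-3, which encodes the gamma subunit, had 310.0 and 298 CPM in the mutant libraries, against 383 and 394 CPM in the N2 libraries. Both mutant libraries lay well below both N2 libraries, and the gap between groups was several times the gap within either. The log2 fold change was -0.35 ± 0.09 (SE, edgeR adjusted p = 0.01356), a level in the mutant that was 78.3% of that in N2, with a 95% interval of the change from -31.5% to -10.5%.

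The gene cct-8 encodes the theta subunit, and raising its level is known to promote assembly of the whole complex in C. elegans. It had 288 and 259.8 CPM in the mutant and 358 and 324 CPM in N2. The libraries of the groups did not overlap, but those within each group differed by about as much as the nearest libraries of different groups did. Its log2 fold change was -0.31 ± 0.10 (edgeR adjusted p = 0.0358), with a 95% interval of the change from -30.7% to -6.67%. The call was not made with library size alone (adjusted p = 0.05172), DESeq2 (0.05329), limma on the deposited log2 values (0.05011), genes under a mean of 50 counts left out (0.06683), the replicate number as a block (0.05071) or without N2 replicate 1 (0.06318), in all of which the log2 fold change stayed between -0.32 and -0.24.

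For cct-2, the beta subunit gene, the values were 297 and 271 CPM in the mutant and 355 and 346 CPM in N2. Here the N2 libraries lay close together and both mutant libraries were lower. The log2 fold change was -0.30 ± 0.09 (edgeR adjusted p = 0.03138), 81.0% of the N2 level, and the call was not made when genes under a mean of 50 counts were left out (-0.27, adjusted p = 0.05592) or with the replicate number as a block (-0.31, 0.05954).

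**Figure D1:**
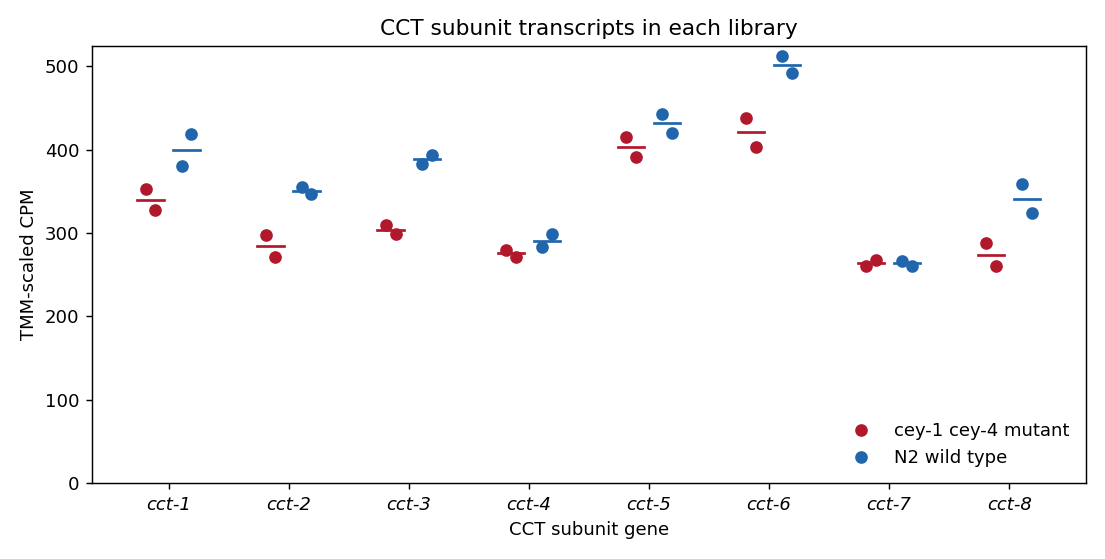
TMM-scaled CPM (vertical axis) of the 8 CCT subunit genes (horizontal axis) in each library, with mutant libraries in red left of N2 libraries in blue and a line at each group's mean of 2 libraries. The mutant points lie below the N2 points for 7 genes, widest apart for cct-3, and the groups overlap for cct-7.

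The genes of the zeta and alpha subunits, cct-6 and cct-1, had values below those of N2 but missed the threshold. Transcripts of cct-6 had 438 and 403 CPM in the mutant and 512 and 492 CPM in N2, with a change of -0.25 ± 0.09 on the log2 scale (edgeR adjusted p = 0.06425). Transcripts of cct-1 had 352 and 327 CPM in the mutant and 381 and 419 CPM in N2, with a change of -0.24 ± 0.09 on the log2 scale (edgeR adjusted p = 0.09212). In both genes the groups did not overlap, and the intervals of the change, from -27.1% to -3.55% for cct-6 and from -26.4% to -1.88% for cct-1, left out 0 before adjustment for the number of genes.

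The genes cct-5, cct-4 and cct-7 differed least between the groups. The epsilon subunit gene cct-5 had 415 and 391 CPM in the mutant and 443 and 420.3 CPM in N2 (log2 fold change -0.10 ± 0.09, edgeR adjusted p = 0.4558). The delta subunit contacts actin in the vertebrate complex, and its gene cct-4 had 279 and 272 CPM in the mutant and 283 and 299 CPM in N2 (-0.08 ± 0.09, edgeR adjusted p = 0.5557). In both genes the nearest mutant and N2 libraries were only about 0.02 apart on the log2 scale. The eta subunit gene cct-7 was the member whose groups overlapped, with 259.9 and 267 CPM in the mutant and 267 and 261 CPM in N2. Its log2 fold change was -0.001 ± 0.086 (edgeR adjusted p = 0.9957), and its 95% interval of the change ran from -12.5% to 14.1%. This interval leaves out the change of -21.7% estimated for cct-3 but overlaps the interval of cct-3, from -31.5% to -10.5%. The difference between these genes, the extremes of the 8, was not tested.

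**Figure D2:**
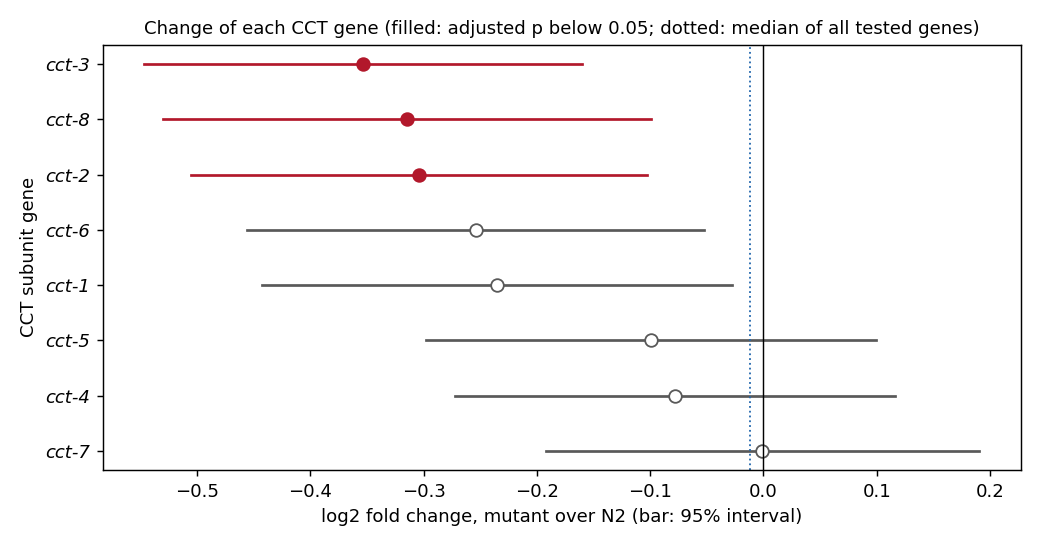
Log2 fold change, mutant over N2 (horizontal axis), of each CCT gene (vertical axis) with its 95% interval from the edgeR fit, filled where the adjusted p was below 0.05. The 8 estimates run from -0.35 for cct-3 to -0.001 for cct-7, and the dotted line marks the median of all tested genes at -0.01.

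Both mutant libraries lay below both N2 libraries in 7 of the 8 genes, as they did for 33.5% of all tested genes. The fitted change was below 0 in 8 of 8, where 51.5% of all tested genes were below 0, although the sign of cct-7 turned under other scalings (0.01 with DESeq2 size factors and 0.02 with library size alone). The members are subunits of 1 complex measured in the same 4 libraries, and so are not independent of each other.

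The mutant libraries differed from each other more than the N2 libraries did in the summed level of the complex. The 8 genes took 0.267% and 0.250% of all counts in mutant replicates 1 and 2, and 0.2937% and 0.2945% in N2 replicates 1 and 2. The group means of 0.259 ± 0.0123% in the mutant and 0.294 ± 0.00054% in N2 (SD, n = 2 each) differed by -0.0354 percentage points, and no test was made on this sum over chosen genes. Of the 8 genes, 7 had a lower CPM in mutant replicate 2 than in mutant replicate 1, by up to 0.15 on the log2 scale in cct-8. Without mutant replicate 2 the median log2 fold change of the members was -0.16, against -0.29 without mutant replicate 1.

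The calls also depended on having both mutant libraries. Without mutant replicate 1, edgeR called 0 of the 8 members (3 at an unadjusted p under 0.05), and 5.07% of all tested genes were lower. Without mutant replicate 2 it called 0 members (0 at an unadjusted p under 0.05), and 2.59% of all tested genes were lower. In these fits cct-3 had log2 fold changes of -0.37 and -0.30 (adjusted p = 0.1139 and 0.2144), cct-2 of -0.36 and -0.21 (0.1224 and 0.3803) and cct-8 of -0.38 and -0.21 (0.1305 and 0.4119). A lone library stands for the mutant in them and is assumed to vary like the N2 pair.

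Levels can be compared between subunits only per length, here as CPM per kb of merged exon. In the mutant the order by mean level was cct-6 (220.0 ± 12.8 CPM per kb), cct-5 (209 ± 8.77), cct-1 (182 ± 9.39), cct-4 (149 ± 2.87), cct-2 (147 ± 9.70), cct-3 (117 ± 3.23), cct-7 (117 ± 2.34) and cct-8 (116 ± 8.55). In N2 it was cct-6 (262 ± 7.31 CPM per kb), cct-5 (223 ± 8.22), cct-1 (214 ± 14.5), cct-2 (182 ± 3.32), cct-4 (157 ± 5.996), cct-3 (149 ± 2.94), cct-8 (145 ± 10.4) and cct-7 (117 ± 1.80). So by this measure transcripts of subunits that the ring holds in equal number were not equally abundant in either strain. The order depends on annotated exon lengths, and cct-3, cct-8 and cct-7 have the longest merged exons (2602, 2358 and 2259 bases). The longest coding sequences of the 8 genes run only from 1587 bases (cct-2) to 1647 (cct-1), and no order by coding length was made. Neighbours whose libraries overlapped were cct-6 and cct-5, cct-4 and cct-2, and the last 3 genes in the mutant, and cct-5 and cct-1 and also cct-3 and cct-8 in N2. The pairs cct-4 with cct-2 and cct-7 with cct-8 stood in opposite order in the mutant and in N2, and in the mutant neither pair was apart.

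**Figure D3:**
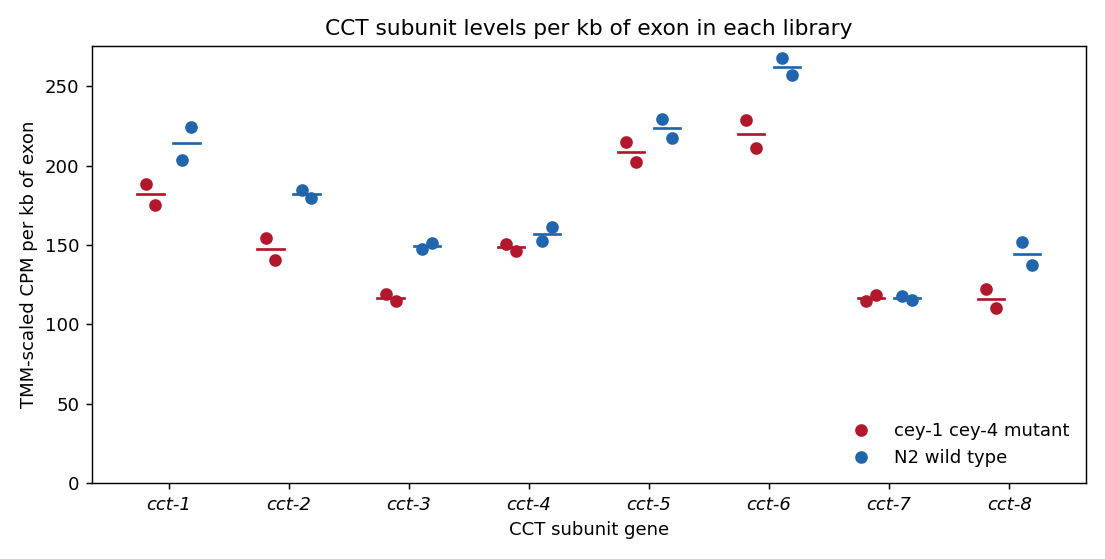
Levels of the 8 CCT genes as TMM-scaled CPM per kb of merged exon (vertical axis) in each mutant library (red, left) and each N2 library (blue, right), with lines at group means. The highest subunit gene is cct-6 in both strains, and cct-3, cct-7 and cct-8 lie together near 117 in the mutant, while cct-3 and cct-8 lie above cct-7 in N2.

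A ratio of subunits within a library depends on no scaling between libraries. The 2 genes with the largest and smallest change, a pair picked after seeing the values, had a count ratio of cct-3 to cct-7 of 1.19 and 1.12 in the mutant libraries, against 1.44 and 1.51 in the N2 libraries. The groups did not overlap, but the pair was chosen for its contrast and nothing is read from this. As a share of the summed levels per kb, cct-7 made up 8.89% and 9.71% of the CCT transcripts in the mutant and 8.11% and 7.998% in N2. The share of cct-3 was 9.21% and 9.40% in the mutant and 10.1% and 10.5% in N2.

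In C. elegans many genes are transcribed as operons, in which genes of the same strand follow each other closely and share a promoter. Downstream of 5 of the CCT genes another gene of the same strand starts within 300 bases, and whether these pairs are operons was not annotated in the tables used here. The closest, 25 bases after cct-2, is mrpl-50, which encodes a mitochondrial ribosomal protein. It had 45.0 and 36.9 CPM in the mutant and 52.9 and 53.2 CPM in N2, and fell by 0.37 ± 0.11 on the log2 scale (edgeR adjusted p = 0.03392), beside -0.30 for cct-2. The signalosome subunit gene csn-4, 94 bases after cct-8, had 42.4 and 46.5 CPM in the mutant and 52.7 and 53.3 CPM in N2, which did not pass (-0.25 ± 0.10, edgeR adjusted p = 0.08319).

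The other 3 neighbours differed from their CCT gene in the estimate. The log2 fold change was -0.10 ± 0.13 for F54A3.2, 102 bases after cct-3, and 0.02 ± 0.13 for the transcription factor gene atf-7, 142 bases after cct-5. For ddx-23, a splicing helicase gene 260 bases after cct-6, it was 0.09 ± 0.09. None of the 3 passed (edgeR adjusted p = 0.6149, 0.9234 and 0.5182), and the differences between neighbours were not tested.

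Prefoldin is the hexamer that holds new actin and tubulin chains and hands them to CCT, and most of its genes were lower in the mutant. Of its 6 genes 5 were lower, namely pfd-1, pfd-2, pfd-3, pfd-4 and pfd-6, with a list median of -0.58, where 13.3% of all tested genes were lower. Transcripts of pfd-1, the most abundant, had 164 and 147 CPM in the mutant and 236 and 227 CPM in N2, with a change of -0.58 ± 0.09 on the log2 scale (edgeR adjusted p = 0.001807). The genes pfd-6 (-0.58 ± 0.10, edgeR adjusted p = 0.002287) and pfd-2 (-0.62 ± 0.13, 0.006792) moved by a like amount. In pfd-4 (-0.63 ± 0.17, 0.02173) the N2 libraries stood far apart at 28.8 and 44.7 CPM, above 24.3 and 23.2 CPM in the mutant. Its change was -0.28 without N2 replicate 2, where the call was lost, and -0.91 without N2 replicate 1. In both of these fits a lone library stands for N2, so the spread of the N2 pair is left out. The gene pfd-5 did not pass (-0.27 ± 0.10, 0.07874).

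Prefoldin genes are shorter than CCT genes, with merged exons of 464 bases in pfd-1 to 898 in pfd-3. With each library's trend of counts on exon length removed 3 prefoldin genes were lower, with a median of -0.36, whereas the CCT genes had 4 lower members, cct-6 with them, and a median of -0.25. In that fit 1531 of the 13944 tested genes were lower. Without mutant replicate 1 edgeR called 2 prefoldin genes lower, and without mutant replicate 2 it called 0 (4 at an unadjusted p under 0.05). The difference between the prefoldin and CCT lists was not tested.

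The genes of the clients moved in different directions. Of 15 tested tubulin genes 4 were lower, tba-1, tba-4, mec-12 and tbb-4, and 1 was higher, tba-7, with a median of -0.21, where 13.3% of all tested genes were lower and 13.1% higher. The alpha-tubulin gene tba-4 had 147 and 137 CPM in the mutant and 178 and 199 CPM in N2 (log2 fold change -0.41 ± 0.10, edgeR adjusted p = 0.01036), and the most abundant member, tba-2, had a change of -0.16 ± 0.09 (edgeR adjusted p = 0.2517). The fall of tbb-4 (-0.71 ± 0.24, edgeR adjusted p = 0.04973) rests on levels of 1.13 to 2.31 CPM and was lost in 10 of 13 alternatives, and that of tba-1 (-0.28) in 8 of 13. The rise of tba-7 (0.43 ± 0.14, edgeR adjusted p = 0.04691) was lost in 5 of 13, with 0.28 without mutant replicate 1. Without either mutant library no tubulin gene was called (0 with edgeR, 4 and 2 at an unadjusted p under 0.05 without mutant replicates 1 and 2).

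Of the 5 actin genes act-2 was lower and act-5, the actin of the intestinal brush border, was higher, against the same 13.3% and 13.1% of all tested genes. The level of act-2 was 262 and 249 CPM in the mutant and 325 and 342 CPM in N2 (log2 fold change -0.39 ± 0.09, edgeR adjusted p = 0.00964), a call lost without mutant replicate 1 (adjusted p = 0.0866) or 2 (0.1784). That of act-5 was 608 and 643 CPM in the mutant and 546 and 429.5 CPM in N2 (0.36 ± 0.12, edgeR adjusted p = 0.04359), a call lost without N2 replicate 2 (0.20) or either mutant library, and the change was 0.54 without N2 replicate 1. The list's median of 0.29 was the change of act-1, and it was 0.10 without N2 replicate 1 and 0.13 without mutant replicate 1. The change of act-1 itself was -0.04 without N2 replicate 1 and 0.71 without N2 replicate 2. The most abundant, act-4, had a change of 0.05 ± 0.10 (edgeR adjusted p = 0.7426). Several actin genes, and several tubulin genes, are near-identical copies whose reads the counting can split, so their values are uncertain. The WD-repeat clients fzy-1, fzr-1, gpb-1 and gpb-2, which encode activators of the anaphase-promoting complex and G protein beta subunits, had 0 members called in the reported fit (2 at an unadjusted p under 0.05 with edgeR), 0 with DESeq2 and 0 with limma. In other edgeR fits of all 4 libraries 1 of them, gpb-1, was higher. These were the edgeR fits with no filter on low counts (log2 fold change 0.41, adjusted p = 0.008395) and with the replicate block (0.42, 0.02364). Of all tested genes 2201 of 18125 and 1792 of 13944 were higher in these fits. The N2 libraries of gpb-1 stood apart at 63.0 and 40.3 CPM, beside 69.6 and 66.0 CPM in the mutant. Its change was 0.75 without N2 replicate 1, where a lone library stands for N2. The list's median was 0.19, and 0.05 without N2 replicate 2.

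**Figure D4:**
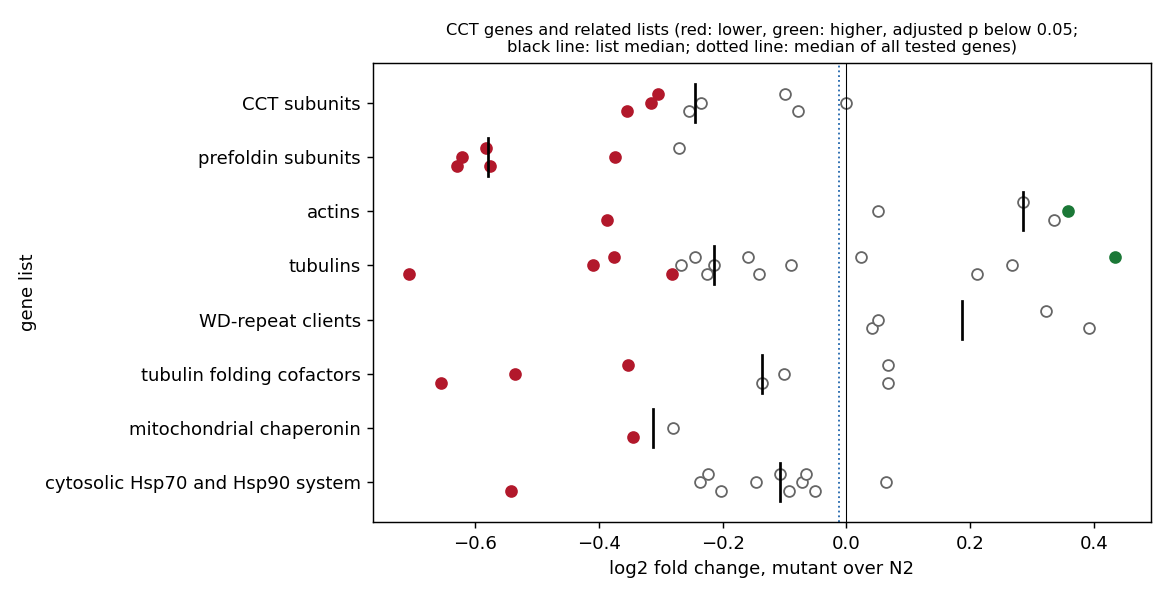
Log2 fold change, mutant over N2 (horizontal axis), of each tested gene in the CCT list and in 7 related lists (vertical axis), red where lower and green where higher at an adjusted p below 0.05, with a black line at each list's median. The CCT median is -0.24, the prefoldin median -0.58 and the tubulin median -0.21.

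Of the 7 genes for tubulin folding cofactors, which act on tubulin after CCT releases it, 3 were lower, with a median of -0.14, where 13.3% of all tested genes were lower. These were tbca-1 (log2 fold change -0.66 ± 0.19, edgeR adjusted p = 0.0255), coel-1 (-0.53 ± 0.17, 0.03576) and tbcb-1, the most abundant per kb of exon though not by CPM (-0.35 ± 0.09, 0.01417). Without N2 replicate 1 edgeR called 1 of them, tbcb-1, with changes of -0.31 for tbca-1 (adjusted p = 0.1341) and -0.39 for coel-1 (0.1501), while 2322 of the 13944 tested genes were lower. The median of the cofactor genes was -0.09 without N2 replicate 2. With the length trend removed 1 of them was called, coel-1, while tbcb-1 had -0.22, and without either mutant library 0 (3 and 1 at an unadjusted p under 0.05 without mutant replicates 1 and 2).

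The chaperonin of the mitochondrion is built from another family of proteins. Its gene hsp-60 had 887 and 817 CPM in the mutant and 1074 and 994 CPM in N2, which did not pass (log2 fold change -0.28 ± 0.10, edgeR adjusted p = 0.0547). The gene of its lid, Y22D7AL.10, was lower (-0.34 ± 0.10, edgeR adjusted p = 0.0313), a call lost in 5 of 13 alternatives, with -0.12 when the length trend was removed.

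Of 11 genes of the cytosolic Hsp70 and Hsp90 system 1 was lower, where 13.3% of all tested genes were lower. This was bag-1, which encodes a cofactor of Hsp70, with 39.6 and 35.4 CPM in the mutant and 52.8 and 56.4 CPM in N2 (log2 fold change -0.54 ± 0.10, edgeR adjusted p = 0.003857). The change of bag-1 was -0.35 after removal of the length trend, and the call was lost without mutant replicate 2. After removal of the length trend the list had 3 lower members of 11, where 1531 of the 13944 tested genes were lower. The list's median was -0.11, and -0.18 without N2 replicate 2. The most abundant member, the Hsp70 gene hsp-1, had a change of -0.20 ± 0.10 (edgeR adjusted p = 0.1791), and hsf-1, the heat shock transcription factor gene, had 85.5 and 96.1 CPM in the mutant and 97.6 and 93.1 CPM in N2 (-0.07 ± 0.10, edgeR adjusted p = 0.6339).

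Among 399 other tested genes with a mean CPM inside the range of the CCT genes, those whose centred log2 CPM over the 4 libraries lay nearest to the mean CCT profile were ldp-1, dpyd-1, cars-1, T25B9.9 and adk-1. Their root mean square differences from it were 0.00437, 0.00621, 0.0141, 0.0233 and 0.0237, against 0.0324 for cct-6, the nearest member, and 0.111 for cct-7, the farthest. With 4 libraries such nearness is a description only. The closest, ldp-1, had 407 and 383 CPM in the mutant and 458 and 456 CPM in N2, and none of the 5 passed the test, with log2 fold changes from -0.25 to -0.17.

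Markers of several tissues moved with the groups as well, and their part in the CCT values was not tested. Their counts stand against 13.3% of all tested genes lower and 13.1% higher. Of 9 rows for sperm genes 8 were higher in the mutant (summed level 379 and 363 CPM in the mutant, 247 and 248 CPM in N2). Of 6 body wall muscle genes 3 were higher (9850.5 and 9999.5 CPM in the mutant, 7159.6 and 7515 CPM in N2). Much of that sum was unc-54 (5947 and 6114 CPM in the mutant, 3818 and 4071 CPM in N2). The call of myo-3 was lost with the length trend removed. Both mutant libraries lay below both N2 libraries for the muscle gene unc-27, which did not pass (-0.26 ± 0.12, edgeR adjusted p = 0.1295). In the list of 8 genes for oocytes and the eggshell 3 were lower (6082 and 6383 CPM in the mutant, 7843 and 7169.9 CPM in N2). The 8 germline genes had 0 members called in the reported fit (2 lower at an unadjusted p under 0.05 with edgeR), 0 with DESeq2 and 0 with limma. In other edgeR fits of all 4 libraries 1531 (length trend removed) and 2030 (crossed replicate block) of the 13944 tested genes were lower. Of the 8 germline genes these fits called 3 and 1 lower, and 1 of 8 is near the share of all genes. Germline genes were also called lower without N2 replicate 1 or 2, where a lone library stands for N2. The list's median log2 fold change there was -0.13 and -0.16. The median of the germline genes was -0.17, and -0.08 without mutant replicate 1. Their summed levels were 2090.6 and 2150.2 CPM in the mutant and 2480.6 and 2179.7 CPM in N2, which did not overlap. Intestinal genes had 2 of 6 members higher (1455.6 and 1529 CPM in the mutant, 1337 and 1183 CPM in N2). Of these 2, act-5 is also in the actin list, with 608 and 643 CPM in the mutant and 546 and 429.5 CPM in N2. Neuronal genes had 1 higher and 1 lower of 6 (96.1 and 102 CPM in the mutant, 86.3 and 92.1 CPM in N2). The median change of the neuronal genes was -0.14, with 5 of 6 below 0, although their summed level was higher in the mutant, where unc-13 was the member called higher (55.8 and 61.1 CPM in the mutant, 37.2 and 44.1 CPM in N2). Without N2 replicate 2 that median was -0.07, and with the length trend removed -0.05. As each library was left out, the median log2 fold change ran from 0.89 to 0.98 for sperm symbols and from 0.22 to 0.31 for muscle. It ran from 0.18 to 0.28 for intestine and from -0.38 to -0.18 for oocyte and eggshell genes. Without either mutant library fewer members of each of these lists were called, as were fewer of all tested genes. No marker was at 0 in all libraries.

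**Figure D5:**
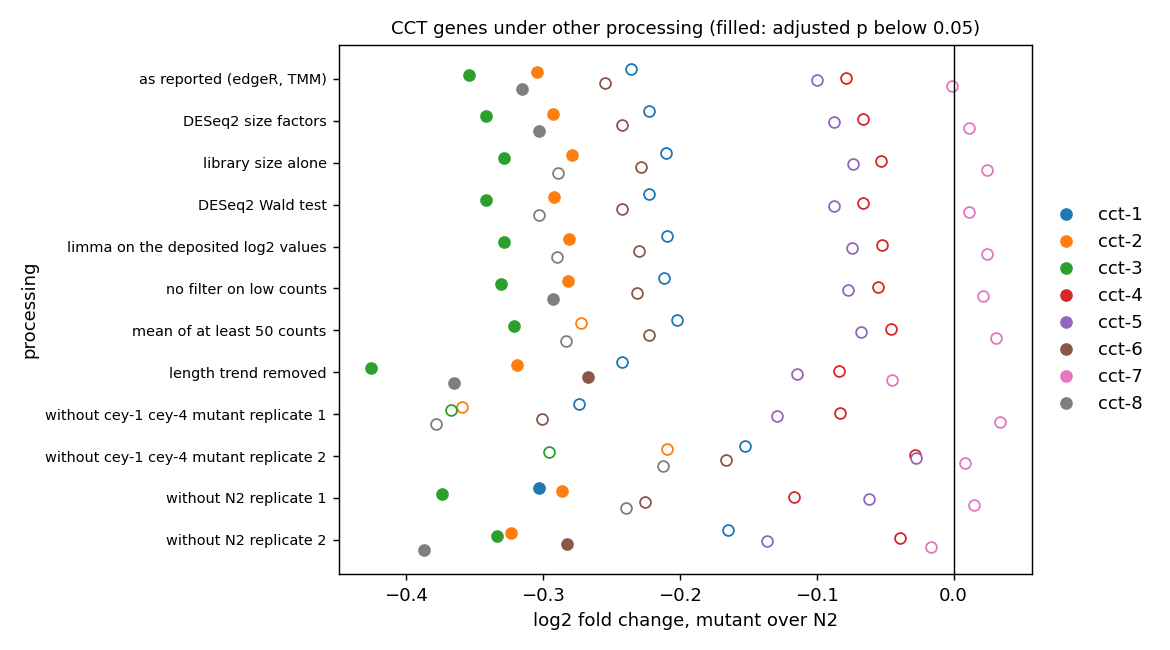
Log2 fold change, mutant over N2 (horizontal axis), of the 8 CCT genes under the reported fit and 11 other ways of processing (vertical axis), filled where the adjusted p was below 0.05. The gene cct-3 stays between -0.43 and -0.30 and is called in all of those shown but the fits that leave out a mutant library, and cct-7 stays near 0.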

How the data were processed

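Per the labels' protocols, Trizol total RNA from lysates also used for ribosome profiling was made into ScriptSeq v2 libraries. The authors deposited raw counts per gene for the 4 libraries. No aligner, counter, build or strand setting is named in the sources used here. The deposited log2 values match the logarithm of counts brought to the same total with 8 added (largest gap 0.0005073), and were used only in an alternative.

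A name table gave symbols for 18778 of 20182 IDs, and exon lengths came from the Ensembl annotation of WBcel235. The test was the quasi-likelihood F test of edgeR 4.0.16 in R 4.3.3, after the default filter and TMM scaling, with Benjamini-Hochberg adjustment over 13944 genes and a threshold of 0.05. The SE is the absolute log2 fold change over the square root of F, and 95% intervals use its t quantile. Lists are described by counts and medians with no set test. Alternatives used DESeq2 1.42.0, limma 3.58.1, other scalings and filters, left-out replicates, replicate blocks, and a lowess fit on exon length removed per library.

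The members, lists and alternatives were chosen with earlier results of these data known. Named genes were the members, cey-1 and cey-4, of each other list up to 3 called genes with the largest change and the most abundant per kb, and the 5 nearest profiles. The genes pfd-3, pfd-5, tba-1, mec-12, act-1, hsf-1, unc-13, unc-27, unc-54 and myo-3 were added after their values were seen. So were the lesser WD-repeat genes and the downstream and overlapping neighbours. The symbols hsp-10 and daf-21 matched no row, and ssp-9 matched 2. Replicate counts differed beyond sampling noise, with a chi-square over its degrees of freedom of 8.55 in the mutant and 28.7 in N2. On counts simulated for this comparison with 13944 genes, edgeR recovered 89% of 2-fold changes and 66% of 1.5-fold changes, with 4.91% of calls false. The simulation changed 200 genes of widely differing levels, fewer than were called in the data. The CCT changes are smaller than either fold and the CCT genes more abundant than most, so these rates do not describe the CCT genes. Library totals of 24717311 to 33009708 counts keep counting error small. Figures were drawn with matplotlib.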

Additional observations from a re-analysis of the deposited data

How the results depend on the processing

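The median log2 fold change of the CCT genes stayed below 0 in all 13 alternatives. It was -0.25 with the length trend removed and ran from -0.29 to -0.16 as each replicate was left out. The number of members called lower was 1 when genes under a mean of 50 counts were left out, where 1460 of 11228 tested genes were lower, so that 1 of 8 is near the share of all genes. It was 3 as reported and 0 to 4 as each replicate was left out. No alternative called a member higher (0 with edgeR, DESeq2 and limma). Of the 3 genes called, cct-3 was called lower in 11 of 13 alternatives, cct-2 in 9 and cct-8 in 5. These 13 include a crossed replicate block, chosen after seeing the data, in which all 3 were called. The log2 fold change of cct-7, never called, changed sign to 0.011 with DESeq2 size factors and with the DESeq2 test, 0.0244 with library size alone, 0.0245 with limma, 0.0218 without a filter and 0.0308 with a mean of at least 50 counts, and ran from -0.0167 to 0.034 as each replicate was left out. Across all genes, leaving out a replicate gave 361 to 2322 lower and 829 to 2067 higher genes, against 1858 and 1821 as reported. The lowest of these numbers came without a mutant library and the highest without N2 replicate 1. In every such fit a lone library stands for 1 group, and the spread comes from the pair of the other group. The CCT share of counts differed by -0.0442 to -0.0267 percentage points as each replicate was left out.

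The replicate numbers are shared by the groups, but nothing shows that they pair the samples. Deviations of same-numbered libraries from their group means had a correlation of -0.14 across genes of at least 5 CPM. With the replicate block 1 member was called lower (cct-3) and 1727 genes were lower and 1792 higher. A crossed replicate block, chosen after seeing the data, gave 5 lower members, with 2030 genes lower and 1912 higher.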
